A study of Canis lupus familiaris with 16 samples.

Results

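The 10 genes described here encode the core proteins of elastic fibers and of the microfibrils that carry them: the fibrillins *FBN1* and *FBN2*, elastin (*ELN*), the fibulins *FBLN1*, *FBLN2*, *FBLN5*, *EFEMP1* and *EFEMP2*, and the microfibril-associated genes *MFAP4* and *MFAP5*. They were taken by name from the 41818 genes on which reads were counted in RNA from 16 canine soft tissue sarcomas, and all 10 were found in the table. RNA came from archived sections that had been fixed in formalin and embedded in paraffin, and the tumors were grouped here by the molecular identity the labels give. There were 4 fibrosarcomas (FS; S1-02, S1-11, S1-12 and S2-06) from dogs aged 9 to 13 years, 6 peripheral nerve sheath tumors (PNST; S1-03, S1-04, S1-05, S1-09, S1-10 and S2-07) from dogs aged 8 to 13 years, and 6 perivascular wall tumors (PWT; S1-07, S2-03, S2-04, S2-08, S2-09 and S2-11) from dogs aged 2 to 14 years. No treatment is given for any dog, and normal tissue was not analysed here. By histology S1-10 was a PWT and S2-08 an FS, and because the study reassigned both from their expression, the groups are not independent of gene expression. S1-04 and S1-05 have identical entries in the labels and may come from 1 dog. Tumors were otherwise taken as separate dogs, which the labels do not state, so that p-values measure the spread between these samples.

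Elastic fibers give skin, vessel walls, lung and ligaments their recoil. Cells secrete fibrillins, which assemble into microfibrils, and tropoelastin is deposited on this scaffold and cross-linked by lysyl oxidases, with fibulin-4 (*EFEMP2*) and fibulin-5 (*FBLN5*) acting as the adaptors that bring enzyme and elastin together. Fibrillin-2 is best known from development, whereas fibrillin-1 persists in adult tissue, where microfibrils also hold latent TGF-beta through the LTBP proteins. Fibroblasts and smooth muscle cells are the main producers.

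Reads on genes numbered from 507728 (S1-12) to 4311876 (S1-03) per tumor. Levels are given as CPM, in which the reads of a gene are scaled to the tumor's total on genes after TMM normalization, and they are compared between tumors but not between genes, because the deposited counts are not per length. Fibroblast markers were detected in every tumor, and the sum of 7 of them was highest in S1-11, at 98704 CPM, against 8679 to 35196 CPM in the other 15 tumors. Of the Schwann cell markers, *S100B* ranged from 1.45 to 76.3 CPM and *SOX10* from 2.34 to 4.83 CPM in PNST, overlapping both other types. The sum of 5 such markers was 8.33 to 82.7 CPM in PNST, 5.52 to 66.3 CPM in FS and 4.49 to 11.1 CPM in PWT. The sum of 8 smooth muscle and pericyte markers was no higher in PWT (366 to 691 CPM) than in FS (525.9 to 1712 CPM). Among these 8, *RGS5* had a higher mean in PWT (128 CPM) than in FS (87.3 CPM), with overlapping ranges, and the others had lower means. These markers thus did not set the labelled types apart. Keratinocyte transcripts were high in S1-02, S1-12, S1-04, S1-05 and S2-03, at 902 to 1481 CPM over 7 markers, against 9.75 to 114 CPM in the other 11 tumors. In such whole-tissue RNA, fewer cells of a type and less RNA per cell cannot be told apart.

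Each tumor type was compared with both other types pooled, the comparison the study was built on, using edgeR's quasi-likelihood test. A gene was called when its Benjamini-Hochberg adjusted p-value over all 15408 genes tested was under 0.05 and its absolute log2 fold change above 1. All 10 genes had enough reads to be tested, the sparsest being *FBN2* with 10 or more reads in 11 tumors. In FS, 3 of the 10 were called, *ELN*, *FBN2* and *FBLN5*, all higher, where 9.46% of all genes tested were called and 5.78% were called higher. In PWT, *FBN2* and *EFEMP2* were called, both lower, against 2.12% of all genes called and 0.714% called lower. In PNST edgeR called 0 of the 10, as it called 0% of all genes tested (before adjustment, p was under 0.05 for 2415 of 15408 genes and 3 of the 10). DESeq2 called *FBLN2* as higher in PNST, where it called 293 of 36333 genes, 88 of them higher. The median log2 fold change of the 10 genes was 0.09 in FS, 0.13 in PNST and -0.74 in PWT, beside 0.00, -0.06 and -0.08 over all genes tested.

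**Figure D1:**
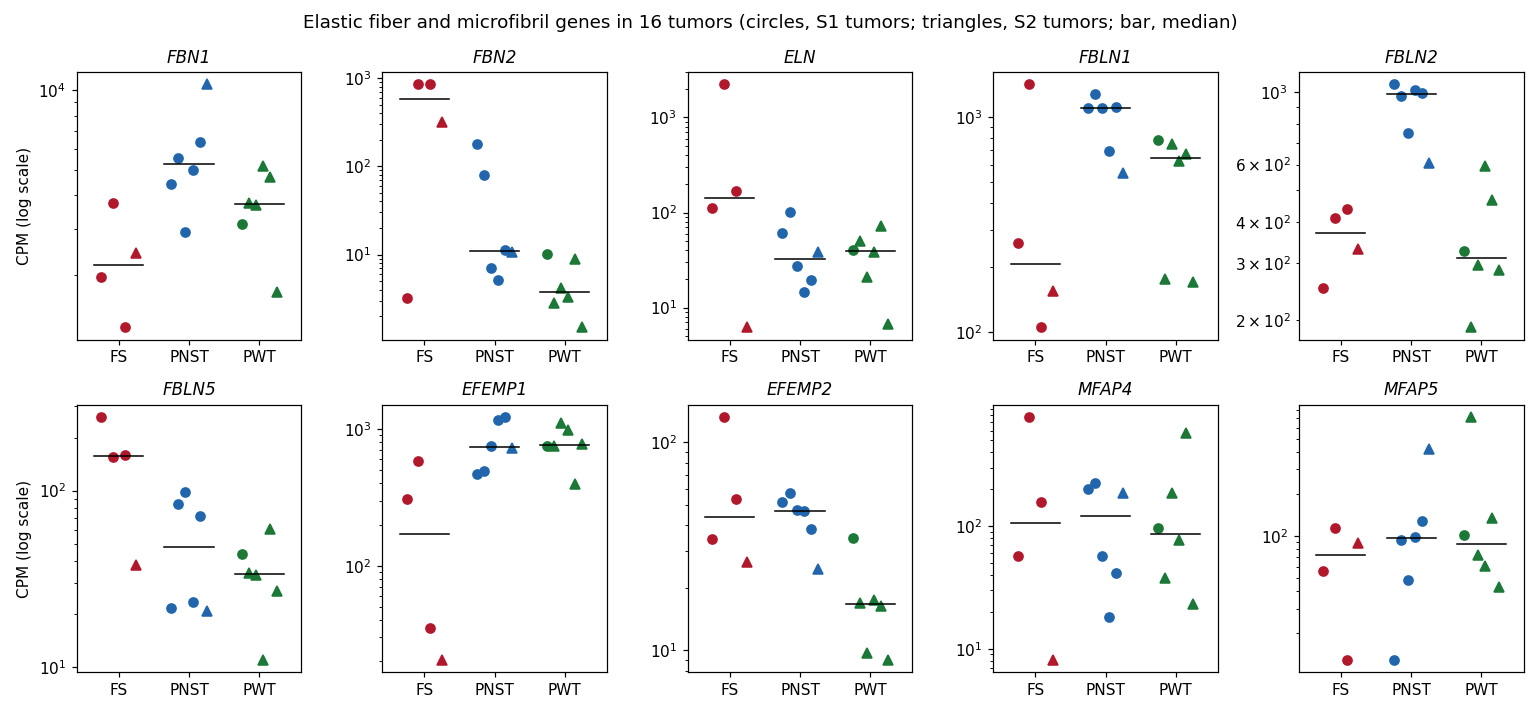
Level of each of the 10 genes (vertical axis, CPM, log scale) in the 16 tumors, by molecular tumor type. Points are tumors, circles for names that begin with S1 and triangles for S2, and the bar is the median of the type. Only for *FBLN2* do all 6 PNST lie above all other tumors, and in FS *ELN* spans from 6.18 to 2248 CPM.

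Fibrillin-1 is the main structural protein of microfibrils. In FS, *FBN1* was at 1966 CPM in S1-02, 3743 CPM in S1-11, 1271 CPM in S1-12 and 2425 CPM in S2-06. Among the 6 PNST it ranged from 2921 CPM (S1-05) to 10524 CPM (S2-07) with a median of 5271 CPM, and among the 6 PWT from 1732 CPM (S2-11) to 5150 CPM (S2-08) with a median of 3707 CPM. The FS were at the low end and PNST at the high end, but all 3 ranges overlapped. In edgeR's test the log2 fold change against both other types was -1.01 ± 0.42 (SE) in FS (adjusted p = 0.129), 0.88 ± 0.35 in PNST (adjusted p = 0.261) and -0.26 ± 0.40 in PWT (adjusted p = 0.734), and none of these was called.

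*FBN2*, which encodes the developmental fibrillin, varied far more. Among FS it stood at 3.23 CPM in S1-02, 849.9 CPM in S1-11, 854 CPM in S1-12 and 316 CPM in S2-06. Its range was 5.13 CPM (S1-09) to 179.7 CPM (S1-03) in PNST with a median of 10.9 CPM, and 1.496 CPM (S2-11) to 10.3 CPM (S1-07) in PWT with a median of 3.73 CPM. Thus 3 of the 4 FS lay above every tumor of the other types, whereas S1-02, with 9 reads, lay among the lowest. Among PNST, S1-03 and S1-04 (78.9 CPM) stood above the other 4, which lay at or below 11.2 CPM. The gene rose in FS by 4.17 ± 0.99 on the log2 scale (edgeR, adjusted p = 0.0112) and remained called when any 1 of the 16 tumors was left out (adjusted p at most 0.0406), but not in the histology groups (log2 fold change 3.75, adjusted p = 0.0813) nor among S1 tumors alone (3.55, adjusted p = 0.139). In PWT *FBN2* fell by 5.46 ± 1.38 (SE) on the log2 scale (edgeR, adjusted p = 0.0439), from counts of 2 to 18 reads per tumor. That call was lost without any 1 of S1-03, S1-04, S1-07, S1-11, S2-03, S2-04, S2-08, S2-09 or S2-11, with edgeR adjusted p-values of 0.0552 to 0.114. In those fits 11 of 15334 (without S2-11) to 351 of 15342 (without S1-07) genes were called in PWT, against 327 of 15408 with all tumors. The *FBN2* call was also lost once the name prefix entered the model (edgeR, log2 fold change -5.03, adjusted p = 0.278), a fit in which 0 of all 15408 genes were called in PWT.

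Elastin, the protein of the elastic core, showed the widest spread of the 10 within 1 type. In FS, *ELN* was at 112 CPM in S1-02, 2248 CPM in S1-11, 169 CPM in S1-12 and 6.18 CPM in S2-06. PNST held it between 14.5 CPM (S1-09) and 101.8 CPM (S1-04), median 32.8 CPM, and PWT between 6.73 CPM (S2-11) and 71.9 CPM (S2-09), median 39.6 CPM. S1-11 exceeded the next highest tumor 13.3-fold, S1-02 and S1-12 lay above the highest PNST, and S2-06 had the lowest level of all 16 tumors. The edgeR call in FS (log2 fold change 3.95 ± 0.75, adjusted p = 0.00268) rested on S1-11, since without it the log2 fold change was 1.20 (adjusted p = 0.298). Without S1-11 the log2 fold changes of *ELN* in the other types, -2.66 in PNST (adjusted p = 0.289) and -2.87 in PWT (adjusted p = 0.156) with all tumors, moved to -0.37 and -0.65 (edgeR). S1-11 also had the highest sums of smooth muscle and pericyte markers (1712 CPM, with *MYH11*, the smooth muscle myosin, at 320.2 CPM) and of skeletal muscle markers (649.8 CPM over 4 markers), and their part in the result was not tested.

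Of the fibulins that adapt elastin to its scaffold, *FBLN5* was called in FS. Its levels there were 262 CPM in S1-02, 155 CPM in S1-11, 160.2 CPM in S1-12 and 38.0 CPM in S2-06. In PNST the lowest was 20.7 CPM (S2-07), the median 47.6 CPM and the highest 98.1 CPM (S1-05), and in PWT the values ran from 10.9 CPM (S2-08) through a median of 33.9 CPM to 60.5 CPM (S2-09). The 3 FS with the prefix S1 lay above all 12 other tumors, and S2-06 lay within the range of both other types. *FBLN5* rose in FS by 1.80 ± 0.46 (SE) on the log2 scale (edgeR, adjusted p = 0.0168). The call was lost without S1-02 (log2 fold change 1.41, adjusted p = 0.0881), in the histology groups (1.41, adjusted p = 0.171) and without the 5 tumors rich in keratinocyte transcripts (1.52, adjusted p = 0.109), an alternative chosen after seeing the data. Within FS and within PNST, *FBLN5* was higher in the tumors with keratinocyte transcripts (160.2 to 262 CPM in 2 FS and 83.6 to 98.1 CPM in 2 PNST) than in those without (38.0 to 155 CPM in 2 FS and 20.7 to 71.7 CPM in 4 PNST). In PWT the one such tumor, S2-03, had 34.3 CPM, inside the 10.9 to 60.5 CPM of the other 5. The part of skin in these levels was not tested further.

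*EFEMP2*, which encodes fibulin-4, the partner of lysyl oxidase, was lowest in PWT. There it ran from 8.98 CPM (S2-11) to 34.8 CPM (S1-07) with a median of 16.7 CPM, while PNST held 24.7 CPM (S2-07) to 57.2 CPM (S1-04) with a median of 47.0 CPM. The FS had 34.4 CPM in S1-02, 132.7 CPM in S1-11, 53.4 CPM in S1-12 and 26.6 CPM in S2-06. All 5 PWT with the prefix S2 were below every FS and PNST, and S1-07, the PWT with the prefix S1, was not. In PWT *EFEMP2* fell by 1.53 ± 0.37 (SE) on the log2 scale (edgeR, adjusted p = 0.0384). Once the prefix entered the model, the log2 fold change shrank to -0.81 (edgeR, adjusted p = 0.430). Among S2 tumors alone, 5 PWT against 2 others, it was -0.84 (edgeR, adjusted p = 0.495). In both fits edgeR called 0 of all genes tested (p was under 0.05 before adjustment for 1633 of 15408 and 1232 of 11874 genes). *EFEMP2* was lower in S2 than in S1 tumors of every type. In PNST it was 24.7 against 38.4 to 57.2 CPM, and in FS 26.6 against 34.4 to 132.7 CPM. With 5 PWT of prefix S2 and 1 of S1, type and prefix cannot be told apart for this gene. Leaving out any 1 of S1-03, S1-04, S1-05, S1-09, S2-03, S2-04, S2-08, S2-09 or S2-11 also ended the edgeR call, at adjusted p-values of 0.0531 to 0.106. Those fits called 11 of 15334 (without S2-11) to 246 of 15329 (without S2-08) genes in PWT, against 327 of 15408 with all tumors. In FS *EFEMP2* had a log2 fold change of 0.98 ± 0.45 (adjusted p = 0.181), which was 0.25 without S1-11 (edgeR).

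*FBLN2*, a fibulin of basement membranes and microfibrils, was the gene that set PNST apart. PNST had a lowest level of 605 CPM (S2-07), a median of 984 CPM and a highest level of 1059 CPM (S1-03). FS had 252 CPM in S1-02, 412 CPM in S1-11, 438 CPM in S1-12 and 331 CPM in S2-06, and PWT ran from 190.2 CPM (S2-03) to 595 CPM (S2-08) with a median of 311 CPM. Every PNST lay above every other tumor, a separation in this direction seen in 1 of the 10 genes and in 0.188% of all genes tested, although S2-07 cleared S2-08 by little. It holds for the molecular groups only. S1-10, a PWT by histology, had 992 CPM, above S1-04 (976 CPM), S1-05 (749 CPM) and S2-07, so the histology groups overlapped. The log2 fold change of *FBLN2* in PNST was 1.32 ± 0.24 (unadjusted p = 3.00e-05, the 4th smallest of all genes), with an edgeR adjusted p of 0.0950, so it was not called, whereas DESeq2 called it (1.31, adjusted p = 5.51e-05). Among S1 tumors, the 5 PNST held 749 to 1059 CPM and the 4 others 252 to 438 CPM, with a log2 fold change of 1.40 (edgeR, adjusted p = 0.240). Once the prefix entered the model it was 1.25 (edgeR, adjusted p = 0.208), and in the histology groups 1.08 (edgeR, adjusted p = 0.617).

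*FBLN1*, which encodes a fibulin bound to elastic fibers and basement membranes, had a single high FS. The FS levels were 259.9 CPM in S1-02, 1427 CPM in S1-11, 105 CPM in S1-12 and 156 CPM in S2-06. Levels in PNST were 552 CPM (S2-07) to 1277 CPM (S1-04), median 1106 CPM, and those in PWT 171 CPM (S2-11) to 783 CPM (S1-07), median 647 CPM. S1-11 was the highest of all 16 tumors, and the other 3 FS lay below all 6 PNST. The edgeR log2 fold change in FS was -0.62 ± 0.60 with all tumors (adjusted p = 0.561) and -2.12 without S1-11 (adjusted p = 0.0340), where the gene was called lower. Values in PNST (0.93 ± 0.48, adjusted p = 0.354) and PWT (-0.56 ± 0.53, adjusted p = 0.552) were not called.

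*EFEMP1*, encoding fibulin-3, had its lowest levels in FS. They were 309 CPM in S1-02, 587 CPM in S1-11, 34.99 CPM in S1-12 and 20.4 CPM in S2-06. The PNST ran from 472 CPM (S1-03) to 1229 CPM (S1-10), median 742 CPM, and the PWT from 396 CPM (S2-09) to 1113 CPM (S2-04), median 765 CPM. S1-02, S1-12 and S2-06 lay below all 12 tumors of the other types, by more than 10-fold for S1-12 and S2-06, and only S1-11 lay among them. In FS the log2 fold change was -1.75 ± 0.62 (edgeR, adjusted p = 0.0804) and was not called. It was called with DESeq2 (-1.71, adjusted p = 0.0217), with library totals in place of TMM (-1.91, edgeR adjusted p = 0.0480) and without S1-11 (-2.71, edgeR adjusted p = 0.0219). PNST and PWT did not differ detectably from the rest (0.50 ± 0.58 and 0.46 ± 0.58, edgeR adjusted p = 0.699 and 0.670).

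The microfibril-associated genes varied within types more than between them. *MFAP4*, encoding a glycoprotein that binds elastin and fibrillin, was at 57.0 CPM in S1-02, 778 CPM in S1-11, 157 CPM in S1-12 and 8.08 CPM in S2-06. PNST had 18.1 CPM (S1-09) to 226 CPM (S1-04), median 121.9 CPM, and PWT had 23.2 CPM (S2-11) to 575 CPM (S2-09), median 87.0 CPM. The FS thus held both the highest and the lowest of the 16 levels. edgeR's log2 fold changes were 0.80 ± 0.83 in FS (adjusted p = 0.593), -0.71 ± 0.81 in PNST (adjusted p = 0.687) and -0.06 ± 0.81 in PWT (adjusted p = 0.971), and without S1-11 the value in FS turned to -0.9996 (adjusted p = 0.587). The 2 tumors highest in *MFAP4*, S1-11 and S2-09, had skeletal muscle marker sums of 649.8 and 83.4 CPM, whereas S1-07, with a sum of 381 CPM, had 97.4 CPM of *MFAP4*, and the part of muscle in the result was not tested.

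*MFAP5*, encoding a small glycoprotein of microfibrils, was at 55.9 CPM in S1-02, 113.5 CPM in S1-11, 12.9 CPM in S1-12 and 88.8 CPM in S2-06 among FS. It reached 422 CPM in S2-07 among PNST, whose lowest level was 12.8 CPM (S1-03) and median 96.0 CPM, and 717 CPM in S2-03 among PWT, whose lowest level was 42.6 CPM (S2-11) and median 86.9 CPM. The medians of the 3 types lay close together and each of the other 2 types had 1 tumor far above the FS. No comparison was called, with edgeR log2 fold changes of -1.22 ± 0.80 in FS (adjusted p = 0.365), -0.08 ± 0.71 in PNST (adjusted p = 0.967) and 0.81 ± 0.67 in PWT (adjusted p = 0.494). Without S2-03, the PWT with keratinocyte transcripts, the sign in PWT turned (-0.39, edgeR adjusted p = 0.750). In the RefSeq gene table of another canine assembly *MFAP5* overlaps *RIMKLB*, which had at most 3 reads in any tumor.

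**Figure D2:**
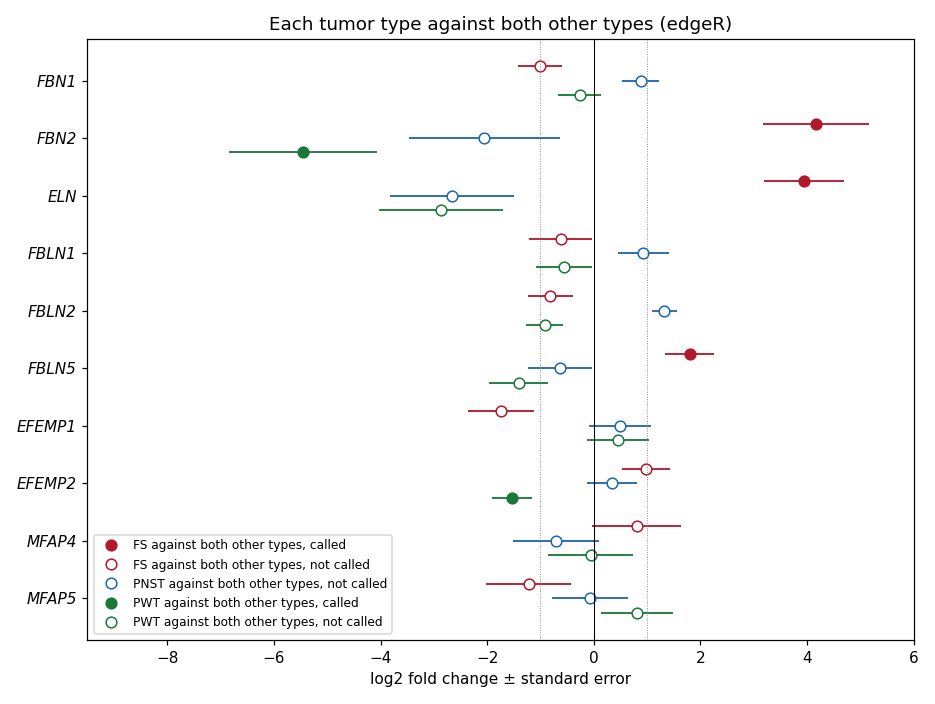
Log2 fold change of each gene in 1 tumor type against both other types pooled (horizontal axis; bars are the standard error), by color for FS, PNST and PWT. Filled points passed the edgeR call and open points did not, and dotted lines mark an absolute log2 fold change of 1. *FBN2* and *ELN* lie far to the right for FS, with *FBLN5* nearer, and the filled points for PWT are *FBN2* and *EFEMP2*.

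How far the FS values rested on single tumors was seen by leaving out each FS in turn. S1-11 had the highest level of all 16 tumors for 4 of the 10 genes, *ELN*, *FBLN1*, *EFEMP2* and *MFAP4*, and the highest level within FS for 7. S2-06 had the lowest level of all 16 for 3 genes, *ELN*, *EFEMP1* and *MFAP4*. The number of the 10 genes called in FS was 4 without S1-11 (*FBN2* and *FBLN5* higher, *FBLN1* and *EFEMP1* lower), 2 without S1-02 (*ELN* and *FBN2*) and 3 without either of the others. Over all genes, edgeR called 911 of 15227 in FS without S1-11 and 1304 of 15020 without S1-02. Without either of the others it called 1299 of 15377 and 1304 of 15202, against 1457 of 15408 with all tumors. In PWT, S2-11 was the lowest tumor of its type for 7 of the 10 genes.

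**Figure D3:**
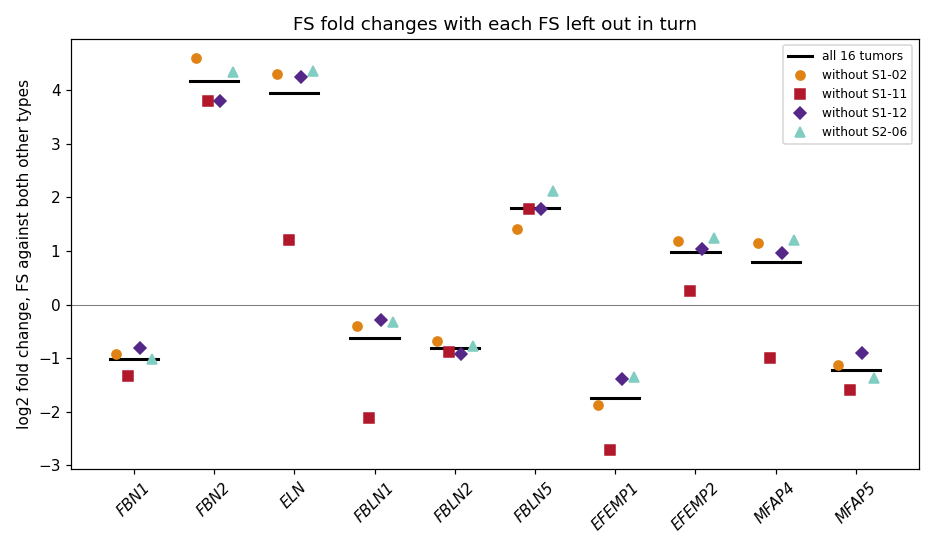
Log2 fold change of each gene in FS against both other types (vertical axis) with all 16 tumors (black bar) and without each of the 4 FS (colored symbols). Leaving out S1-11 moves *ELN* from 3.95 to 1.20, *FBLN1* from -0.62 to -2.12 and *EFEMP2* from 0.98 to 0.25, whereas *FBN2* and *FBLN5* stay above 1 whichever FS is left out.

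Pairs of types were compared in 1 edgeR fit with 3 groups, which share tumors with the comparisons above. Between FS and PNST, 2 of the 10 genes were called, where 7.13% of all genes were. *ELN* was higher in FS (log2 fold change 3.85 ± 0.98, edgeR adjusted p = 0.0227) and lost the call without S1-11 (1.10, adjusted p = 0.410) and without S1-10 (adjusted p = 0.0536). *FBLN2* was lower in FS (-1.33 ± 0.32, edgeR adjusted p = 0.0164) and remained called without any 1 tumor. *FBN2* missed the threshold (3.36 ± 1.03, edgeR adjusted p = 0.0538), as did *FBN1* (-1.30 ± 0.42, adjusted p = 0.0642).

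Between FS and PWT, 4 of the 10 genes were called, all higher in FS, where 11.2% of all genes were called and 6.15% were called higher. The difference was 6.60 ± 1.22 on the log2 scale for *FBN2* (edgeR adjusted p = 0.00296), 4.05 ± 0.99 for *ELN* (0.0137), 2.14 ± 0.54 for *FBLN5* (0.0164) and 1.80 ± 0.43 for *EFEMP2* (0.0120). *ELN* and *EFEMP2* lost the call without S1-11 (1.29 and 1.07, edgeR adjusted p = 0.307 and 0.0931) and *FBLN5* lost it without S1-02 (1.75, adjusted p = 0.0537), while *FBN2* remained called without any 1 tumor. Once the prefix entered the model, *FBN2* alone of the 4 was called. In that fit edgeR called 895 of all 15408 genes between FS and PWT, against 1726 without the prefix. Tumors with both prefixes were too few on each side for a comparison within a prefix.

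Between PNST and PWT edgeR called 0 of the 10 genes, where 0.169% of all genes were called and p was under 0.05 before adjustment for 3013 genes. The smallest adjusted p-value of the 10 was that of *FBLN2* (log2 fold change 1.32 ± 0.27, edgeR adjusted p = 0.0571), which was called without S2-07 (1.41, adjusted p = 0.0253) and, at adjusted p-values of at most 0.0452, without S1-02, S1-11, S1-12, S2-06 or S2-08. *EFEMP2* (1.33 ± 0.39) and *FBN2* (3.24 ± 1.07) followed, at edgeR adjusted p-values of 0.102 and 0.128, and these 3 genes were the ones with p under 0.05 before adjustment. DESeq2 called all 3, and 541 of 36157 genes in this pair. In the edgeR fits that called *FBLN2*, 49 of 15020 (without S1-02) to 226 of 15365 (without S2-07) genes were called.

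Other genes of the pathway were taken from a list of 28 genes for microfibril assembly, elastin cross-linking, proteins between fiber and cell, and elastin breakdown. Of these, 24 had enough reads to be tested, and *EMILIN3*, *ADAMTSL2*, *MMP12* and *FBN3* did not. In FS 8 of the 24 were called, all higher, where 9.46% of all genes tested were called and 5.78% were called higher, and the median log2 fold change of the 24 was 0.92 beside 0.00 over all genes tested.

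Among the cross-linking enzymes, 3 of 5 rose in FS, namely *LOXL1* (log2 fold change 2.09 ± 0.43, edgeR adjusted p = 0.00474), *LOXL2* (1.59 ± 0.36, adjusted p = 0.00856) and *LOX* (1.56 ± 0.46, adjusted p = 0.0339), the last encoding the founding lysyl oxidase. *LOX* was at 157 CPM in S1-02, 483 CPM in S1-11, 203 CPM in S1-12 and 179 CPM in S2-06, against a range of 23.9 to 205 CPM in PNST and 23.9 to 122.6 CPM in PWT. The latent TGF-beta binding proteins *LTBP2* (2.65 ± 0.59, edgeR adjusted p = 0.00720) and *LTBP1* (2.06 ± 0.58, adjusted p = 0.0283) also rose. So did *EMILIN1* (1.38 ± 0.35, edgeR adjusted p = 0.0173), which encodes a glycoprotein at the elastin surface, *HMCN1* (2.38 ± 0.62, adjusted p = 0.0190), encoding hemicentin-1, and *FBLN7* (1.82 ± 0.54, adjusted p = 0.0352), encoding fibulin-7. Of the tested proteinases that can break down elastin none was called, with *MMP9* at -3.07 ± 1.74 (edgeR adjusted p = 0.286). *MMP9* was at 189 CPM in S2-09 and 37.0 CPM in S2-07, and at most 10.4 CPM (S1-04) in the other tumors. *MMP12*, which was not tested, was at 133 CPM in S2-06, 15.8 CPM in S1-02, 4.39 CPM in S1-11 and 0 CPM in S1-12. In PNST and PWT it was at most 2.79 CPM (S2-04).

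Most of these calls were also lost when a single FS was left out. Without S1-11, 7 of the 8 were lost, with edgeR log2 fold changes of 0.77 for *EMILIN1*, 0.97 for *FBLN7*, 1.05 for *LOXL1*, 1.05 for *LOX*, 1.66 for *LTBP2*, 1.74 for *HMCN1* and 2.10 for *LTBP1* and adjusted p-values from 0.0601 to 0.346. For *LTBP1* the log2 fold change did not shrink (2.06 with all tumors). Calls in FS over all genes fell from 1457 of 15408 to 911 of 15227 in that fit. *LOXL2* and *LTBP4*, the latter lower, were the pathway genes it called. Without S1-02, where 1304 of 15020 genes were called in FS, *LOXL2*, *LTBP1* and *FBLN7* were lost and *CTSK*, encoding cathepsin K, was called as lower. *CTSK* was at 1984 CPM in S1-02, 110 to 216 CPM in the other FS and 256 to 753 CPM in PNST and PWT. *LTBP1*, at 467 CPM in S1-02 against 9.21 CPM in S1-12, fell to 0.71 without S1-02 (edgeR adjusted p = 0.495). *FBLN7* and *LOX* also lost the call without S1-07 or S2-08, and *FBLN7* without S2-04, at edgeR adjusted p-values from 0.05004 to 0.346 over all these fits of both genes. In the histology groups, in which calls in FS over all genes fell from 1457 to 205 of 15408, 0 of the 8 remained called, at edgeR log2 fold changes between 1.23 (*LOX*) and 2.32 (*LTBP2*).

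**Figure D4:**
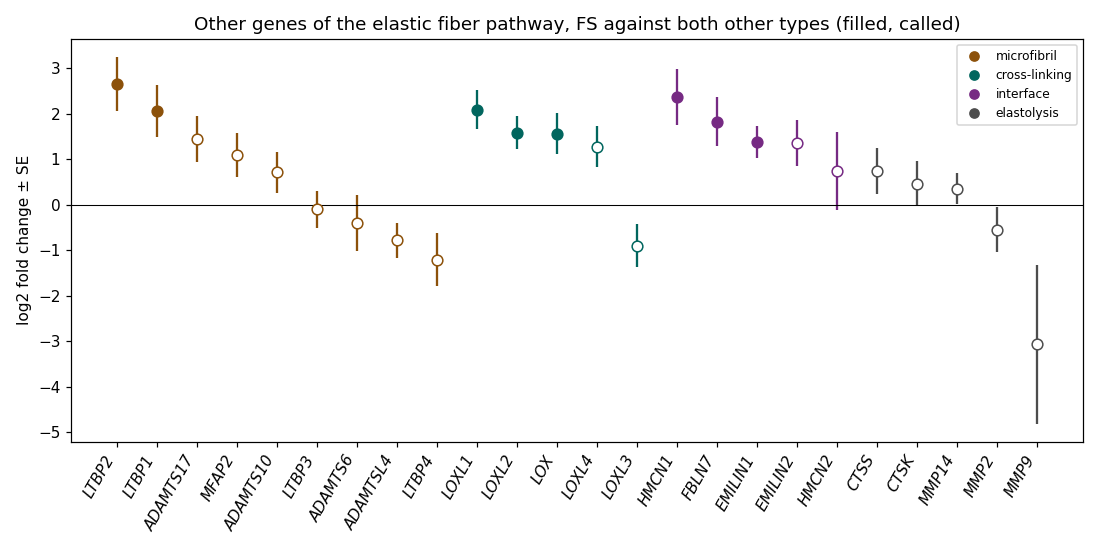
Log2 fold change in FS against both other types (vertical axis; bars are the standard error) for the 24 other pathway genes tested, grouped by role. Filled points are the 8 genes edgeR called, all above 0, and they lie among the microfibril, cross-linking and interface genes.

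In PNST and PWT edgeR called 0 of the 24 pathway genes (before adjustment, p was under 0.05 for 3 and 6 of them), where 0% and 2.12% of all genes tested were called. The smallest p-values in PNST were those of *LOXL3* (1.14 ± 0.33, edgeR adjusted p = 0.171) and *LTBP4* (1.36 ± 0.41, adjusted p = 0.185), and in PWT those of *EMILIN2* (-1.48 ± 0.51, edgeR adjusted p = 0.107) and *LOXL1* (-1.62 ± 0.58, adjusted p = 0.118). DESeq2 called the last 2 genes in PWT, where it called 879 of 36333 genes. The log2 fold change was below 0 for 21 of the 24 genes in PWT, with a median of -0.83 beside -0.08 over all genes tested, and the sums of fibroblast markers also ran lower in PWT (8679 to 21418 CPM, against 14353 to 35196 CPM in PNST and 17438 to 98704 CPM in FS, with overlap). That sum is mostly the collagens *COL1A1*, *COL1A2* and *COL3A1*, whereas the mean of *DCN*, encoding decorin, was 3391 CPM in PWT, 3153 CPM in PNST and 1252 CPM in FS. The part of fibroblast content in the result was not tested.

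Whether the 10 genes moved together among tumors of 1 type was tested on log2(CPM + 1), after the mean of the tumor's type was subtracted, for all 45 pairs over 16 tumors. Of the 45 correlations 35 were positive. *ELN* and *MFAP4* had the strongest relation, with Pearson's r = 0.859 (two-sided permutation p = 0.000710 within types, adjusted 0.0320) and Spearman's rho = 0.812 (permutation p = 0.00126, adjusted 0.0567). Without the 2 tumors farthest from the median of *ELN*, r was 0.747. This pair was the one of the 45 with an adjusted p of r under 0.05. It lost that threshold without any 1 of S1-04, S1-09, S1-10, S1-11, S1-12, S2-06, S2-09 or S2-11, with r between 0.790 and 0.873 and permutation p-values, adjusted over the pairs, of 0.0517 to 0.117 in those 8 cases. Without S1-02, the FS with 3.23 CPM of *FBN2*, 3 pairs passed, *FBN2* with *ELN*, *FBN2* with *MFAP4* and *ELN* with *MFAP4*. With all tumors, *FBN2* and *ELN* had r = 0.362 and rho = 0.650. *ELN* and *EFEMP2* (r = 0.755, permutation p = 0.00955, adjusted 0.215) and *FBN1* and *MFAP5* (r = 0.645, permutation p = 0.0152, adjusted 0.229) did not pass the correction.

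**Figure D5:**
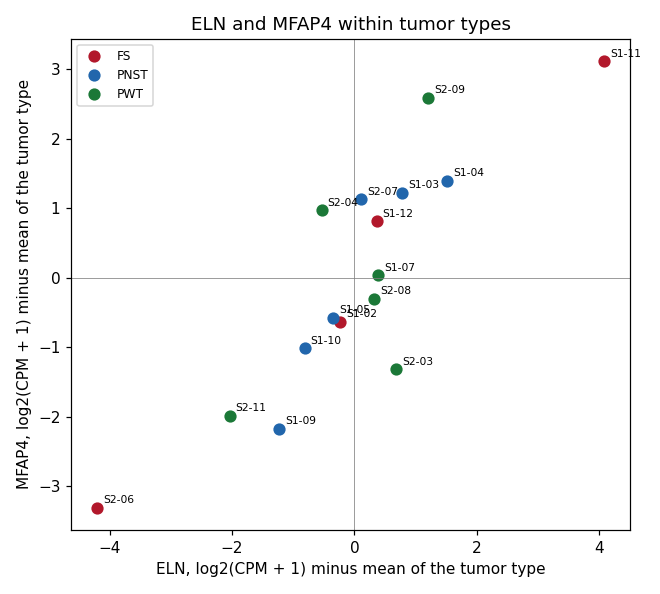
Deviation of each tumor from the mean of its type in *ELN* (horizontal axis) and *MFAP4* (vertical axis), both on log2(CPM + 1). Points are the 16 tumors, colored by type. S1-11 and S2-06 lie at opposite ends, and r was 0.859 with all tumors and 0.803 without S1-11.

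Sequencing runs of the same tumor mostly differed less than tumors did. Over the 9 tumors with 3 runs, the median coefficient of variation between runs was 1.45% for *FBN1* and 27.1% for the sparse *FBN2*, with the other 8 genes between. In the tumor where runs differed most it was 86.8% for *MFAP5*, 48.6% for *FBLN5*, 43.5% for *EFEMP1* and 26.8% for *EFEMP2*, above the smallest value between tumors of a type for these genes (64.2%, 47.4%, 30.8% and 25.8%). Between tumors of 1 type it was 32.8% to 44.7% for *FBN1* and 69.2% to 143.7% for *FBN2*. S1-04 and S1-05, the PNST with identical labels, differed 11.3-fold in *FBN2* (251 and 12 reads), 3.71-fold in *ELN* and 3.99-fold in *MFAP4*, each higher in S1-04, while *FBLN1*, *FBLN2*, *FBLN5* and *EFEMP2* differed less than 1.5-fold. The reassigned tumor S1-10 had 992 CPM of *FBLN2*, inside the range of the other PNST, and the reassigned S2-08 had 3.28 CPM of *FBN2* and 38.8 CPM of *ELN*, inside the range of the other PWT. S2-08 lay outside that range for *FBN1* (5150 CPM) and *FBLN2* (595 CPM), where it was highest, and for *FBLN5* (10.9 CPM), where it was lowest, and S1-10 lay outside the other PNST for *EFEMP1* (1229 CPM), where it was highest. The study reassigned both tumors from their expression. It lists *FBLN2* among genes higher in PNST and *FBN2* among genes lower in PWT. The positions of these 2 tumors are therefore no independent evidence for the groups.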

How the data were processed

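The authors extracted RNA from 2 sections of each tumor, depleted ribosomal RNA, sequenced on an Ion Proton, aligned reads to ROS-canfam-01 with STAR and counted them with htseq-count. The deposited values are raw counts per gene and run. Strand setting and annotation release are not given in the sources used here. Runs of a tumor were summed, and 22.9% to 30.6% of the listed reads per tumor were on genes. Genes were kept that reached 10 counts in 4 or more tumors, and edgeR 4.0.16 (TMM, quasi-likelihood) was run in R 4.3.3 without covariates, with DESeq2 1.42.0 as an alternative. The edgeR and correlation scripts were tested on simulated data. Reads on no gene, on several genes or with several alignments stayed out of library sizes. Correlations used 100000 permutations within types, and 20000 when leaving out tumors. The prefix of the tumor names (S1 in 3 FS, 5 PNST and 1 PWT) may mark the study's 2 sequencing groups. All 10 genes are named, and of the other pathway genes those called in any type or, failing that, the 2 with the smallest p. The 10 genes and all lists were chosen with earlier results of these data known. RefSeq names and overlaps come from UU_Cfam_GSD_1.0. Counts limit precision most for sparse genes in shallow tumors. The alternatives tried were other scaling, no filter, histology groups, the prefix as a term or alone, summing S1-04 and S1-05, and leaving out tumors.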

Additional observations from a re-analysis of the deposited data

Results flagged for a closer look

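Within each type, the highest or lowest tumor of each gene was compared with its neighbor by Dixon's test at the 95% level. The test was run on CPM without a log scale. Its rate of about 1 in 20 groups marked by chance holds for normally distributed values only. The number marked here can therefore not be set against that rate. It marked 6 of the 30 groups of gene and type. In FS, S1-11 stood apart for *ELN* (2248 CPM) and *FBLN1* (1427 CPM). In PWT, S1-07 stood apart for *EFEMP2* (34.8 CPM), S2-09 for *MFAP4* (575 CPM) and S2-03 for *MFAP5* (717 CPM). In PNST, S2-07 stood apart for *MFAP5* (422 CPM). Each of the 6 was the highest tumor of its type.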

How the results depend on the processing

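No paired analysis was possible because replicate numbers only name tumors and pair none of them. The number of the 10 genes called in FS (3) was 1 in the histology groups, and in PNST (0) it was 1 with DESeq2. In PWT (2) it was 1 with library totals, without the filter and with S1-04 and S1-05 summed. Those fits called 179 of 15408, 128 of 36420 and 227 of 15482 genes in PWT. The number was 0 in the histology groups, without both reassigned tumors, with the prefix as a term, within S2 and without the 5 tumors rich in keratinocyte transcripts. Of these last 5 fits, only the one without both reassigned tumors called any gene in PWT (140 of 15102). Within S2, *FBN2* had too few reads to be tested. The *EFEMP2* log2 fold change in PWT also shrank, from -1.53 to -0.81 with the prefix as a term. Between FS and PNST (2) the number of the 10 genes called was 4 with DESeq2, 0 in the histology groups, 1 without both reassigned tumors and 1 without those 5 tumors. The last 2 of these fits called 635 of 15102 and 693 of 13893 genes. Between FS and PWT (4) the number of the 10 genes called was 0 in the histology groups and 1 with the prefix as a term, where 895 of 15408 genes were called. Between PNST and PWT (0) it was 3 with DESeq2. In the histology groups calls over all genes were 205 in FS, 0 between FS and PNST and 5 between FS and PWT, of 15408. DESeq2 called 2106 of 36046 genes in FS, 293 of 36333 in PNST and 879 of 36333 in PWT. Between FS and PNST it called 1772 of 36157, and between PNST and PWT 541 of 36157. Of the other pathway genes 8 were called in FS, but 0 in the histology groups, 5 without both reassigned tumors, 5 with the prefix as a term and 2 within S1, and in PWT (0) DESeq2 called 2. Over all genes, edgeR called 1028 of 15102 in FS without both reassigned tumors. It called 1457 of 15408 with the prefix as a term and 825 of 14371 within S1. With S1-04 and S1-05 summed, 0 pairs of genes were correlated at the threshold. Leaving out 1 tumor gave 2 to 4 genes in FS, 0 in every case in PNST, 0 to 2 in PWT, 1 to 4 between FS and PNST, 3 to 4 between FS and PWT, 0 to 1 between PNST and PWT, 2 to 10 other pathway genes in FS and 0 to 3 pairs. In these fits calls over all genes ran from 911 of 15227 to 1583 of 15039 in FS. In PWT they ran from 11 of 15334 to 487 of 15365. Between FS and PNST they ran from 656 of 15187 to 1201 of 15039. Between FS and PWT the range was 1062 of 15227 to 1898 of 15202, and between PNST and PWT 0 of 15089 to 226 of 15365.

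Signs turned for values that were not called. In FS, *FBLN1* was 0.19 without the 5 tumors. In PNST, *EFEMP2* was -0.12 with the prefix as a term and -0.43 within S1, and *MFAP5* was 0.040 without the filter, 0.43 with the prefix as a term, 0.049 within S1, 0.068 with S1-04 and S1-05 summed and 0.88 without the 5 tumors. In PWT within S2, *ELN* was 0.81, *FBLN1* 0.45, *FBLN5* 0.18, *MFAP4* 0.90 and *MFAP5* -0.26, with the prefix as a term *FBLN1* was 0.21 and *MFAP4* 0.26, with library totals *MFAP4* was 0.060, and without the 5 tumors *MFAP5* was -0.80. Leaving out 1 tumor gave -0.9996 to 1.27 for *MFAP4* in FS, -0.89 to 0.81 for *MFAP5* in PNST, and -1.06 to 0.65 for *MFAP4* and -0.39 to 1.37 for *MFAP5* in PWT. Fewer tumors entered the fits that left any out, and otherwise the cause was not tested.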
